A study of Mus musculus with 2 samples.

Results

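The 10 genes described here encode parts of the bone morphogenetic protein (BMP) pathway and its Id target genes. They were taken by gene symbol from the deposited expression tables of mouse embryonic stem cells (mESCs), and all 10 were found among 23889 symbols. They are the ligand gene Bmp4, the receptor gene Bmpr1a, the effector genes Smad1 and Smad5, the inhibitor genes Smad6 and Bambi, and the target genes Id1, Id2, Id3 and Id4. RNA was sequenced from E14 cells, a mESC line that was grown here without feeder cells. The genotype label was Normal for the control shRNA and USP21 knockdown for the other library, and the cells were collected after 3 days. They are called control cells and knockdown cells below. Both cultures were kept in medium with 15% FBS and 1000 U/ml LIF, the cytokine that sustains mESC self-renewal. Neither group has a replicate (1 library each), so no difference below has a replicate check and no test was run. Which of the USP21 shRNAs was used is not stated, so an effect of that sequence on other transcripts cannot be told apart from loss of USP21.

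BMP ligands bind type II and type I receptors on the cell surface, and the type I receptor phosphorylates Smad1, Smad5 and Smad9. These join Smad4, enter the nucleus and switch on targets, of which the Id genes are the best known. Id proteins carry a helix-loop-helix domain without the basic region that contacts DNA, so they hold E proteins and other basic helix-loop-helix (bHLH) factors away from their sites. In mESCs, BMP from serum or added to the medium acts with LIF to block differentiation, and Id genes are a main output of this signal. FBS, which carries BMP activity, was present in both cultures.

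Of the 10 members, 5 were higher and 5 were lower with the USP21 shRNA, although Bmpr1a changed sides when both libraries were set to the same summed level. The clearest differences were in Smad6, an inhibitory Smad, which was 2.32-fold higher, and in Id4, which was 2.58-fold lower. The other 8 members lay within 1.5-fold. Of all genes used as background below, 50.4% were higher and 49.6% lower. Past 1.5-fold were 7.77% upward and 6.46% downward, so most genes lay within it. The most abundant member, Id1, had nearly the same level in both libraries, and the summed level of the 4 Id genes was 144 FPKM in control cells and 139 FPKM after knockdown. FPKM counts sequenced fragments relative to transcript length and to the size of the library, so it allows levels of different genes to be compared within a library.

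**Figure D1:**
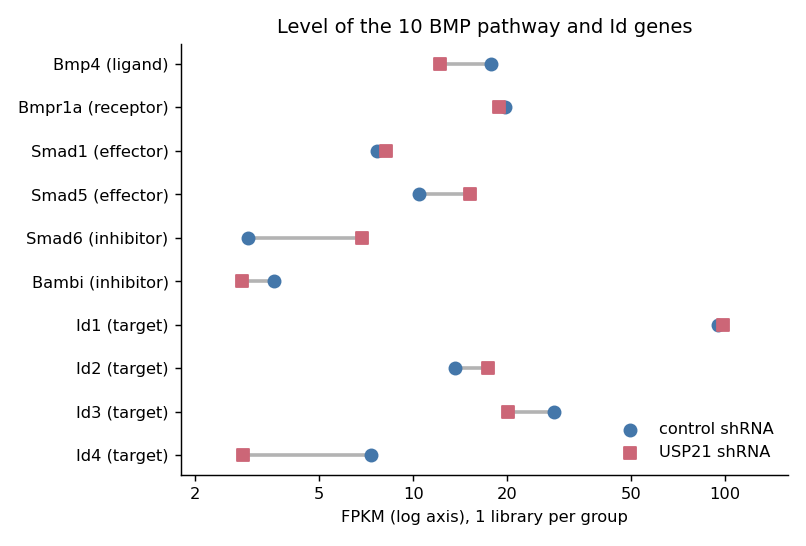
FPKM of each member (horizontal log axis) in the control shRNA library (circles) and the USP21 shRNA library (squares), 1 library per group, with a grey line joining the pair. Smad6 lies at 2.95 and 6.84 and Id4 at 7.31 and 2.83, while the points of Id1, Bmpr1a and Smad1 nearly coincide.

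The bases just upstream of 4 genes are shown because they hold the members with the largest difference in each direction, Id4 and Smad6, and the Id genes of middle level, Id2 and Id3. They come from RefSeq on GRCm38.p6, and 8 of the 10 members had an entry, all but Id1 and Bambi. Each line gives the 250 bases before the start site annotated by RefSeq, 5′ to 3′ on the gene's own strand. GENCODE annotates longer Id2 and Id3 genes, so these 2 windows lie inside the gene positions given further on. Capitals mark GGCGCC, a GC-rich sequence to which BMP-activated Smads bind, and GTCT or AGAC, the short Smad box read on either strand. The windows are Id2 at chr12:25096093-25096342 on the minus strand, Id3 at chr4:136143572-136143821 on the plus strand, Id4 at chr13:48260866-48261115 on the plus strand and Smad6 at chr9:64022060-64022309 on the minus strand.
Id2: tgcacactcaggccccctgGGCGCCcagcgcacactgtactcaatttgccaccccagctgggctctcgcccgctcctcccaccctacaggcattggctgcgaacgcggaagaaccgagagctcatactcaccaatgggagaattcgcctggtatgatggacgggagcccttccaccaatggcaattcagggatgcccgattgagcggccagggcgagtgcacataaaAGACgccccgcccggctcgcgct
Id3: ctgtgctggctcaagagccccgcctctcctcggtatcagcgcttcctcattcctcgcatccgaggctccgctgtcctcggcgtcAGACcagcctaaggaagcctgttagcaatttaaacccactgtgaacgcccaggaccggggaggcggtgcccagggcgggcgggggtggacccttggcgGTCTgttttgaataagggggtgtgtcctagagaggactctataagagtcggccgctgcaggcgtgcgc
Id4: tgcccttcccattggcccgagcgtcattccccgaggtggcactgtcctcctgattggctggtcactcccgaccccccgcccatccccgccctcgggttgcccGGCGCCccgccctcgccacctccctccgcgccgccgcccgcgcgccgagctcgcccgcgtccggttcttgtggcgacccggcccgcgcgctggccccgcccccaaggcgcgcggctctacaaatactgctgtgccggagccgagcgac
Smad6: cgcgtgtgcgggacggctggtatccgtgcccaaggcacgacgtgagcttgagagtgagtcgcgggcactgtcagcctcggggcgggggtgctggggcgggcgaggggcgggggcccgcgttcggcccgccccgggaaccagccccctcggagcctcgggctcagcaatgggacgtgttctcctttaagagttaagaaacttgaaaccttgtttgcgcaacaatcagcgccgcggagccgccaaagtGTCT

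GGCGCC, which reads the same on both strands, occurred once upstream of Id4, beginning 148 bases before the start site, and once upstream of Id2, beginning 231 bases before it. It was not among the letters of the Id3 and Smad6 windows. Id3 held GTCT or AGAC at 2 places, Id2 and Smad6 at 1 place each, and Id4 at none. Over the 8 members with an entry, 4 had GGCGCC in at least 1 window (Bmpr1a, Smad5, Id2 and Id4) and 5 had GTCT or AGAC. Smad5 has 3 annotated windows, of which 1 held GGCGCC. Of all 32851 upstream windows in the table, 9.59% held GGCGCC and 82.9% held GTCT or AGAC. Among the 9178 windows with at least 60% G and C, like those of all the members with an entry, the share with GGCGCC was 26.1%. GGCGCC was present in the windows of both Id2, which was 1.28-fold higher with the USP21 shRNA, and Id4, which was lower. Whether it had a part in either difference was not tested. These matches describe the letters only, and no binding was measured in the files analysed here.

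Differences are given as log2((FPKM USP21 shRNA + 0.1)/(FPKM control shRNA + 0.1)), called the log2 ratio, which understates the change of low genes. They are read against the 11927 genes that reached FPKM 1 in either library, a level that all 10 members passed. Over these genes the median log2 ratio was 0.0031, the middle 50% ran from -0.22 to 0.24, and 5% each lay below -0.66 and above 0.74. The members had a median log2 ratio of -0.0090, and the median of its size without sign was 0.42 for the members and 0.23 for all genes. Past 2-fold were 1 member upward (Smad6) and 1 member downward (Id4), beside 2.30% of all genes higher and 2.03% lower. The same 2 genes were the members past 1.5-fold, beside 7.77% of all genes higher and 6.46% lower. Among the 4329 genes whose higher FPKM lay between 5 and 20, as for Smad6 and Id4, 1.85% were at least 2-fold higher and 1.29% at least 2-fold lower.

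**Figure D2:**
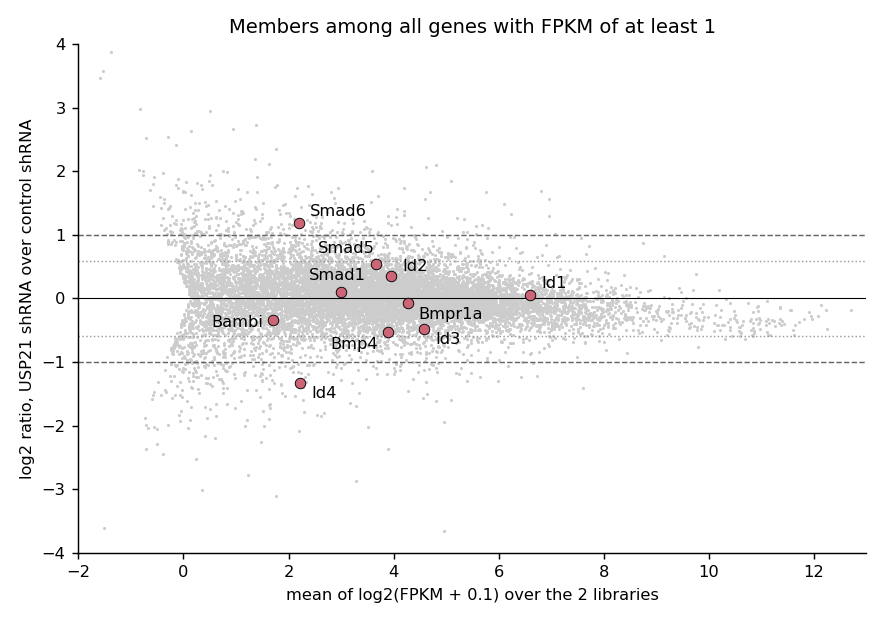
Log2 ratio (USP21 shRNA over control shRNA, vertical) against the mean of log2(FPKM + 0.1) over both libraries (horizontal), for the 11927 genes that reached FPKM 1 in either library (grey) and the 10 members (red, named). Dotted lines mark 1.5-fold and dashed lines 2-fold, 4 genes lie beyond the vertical range, and Smad6 and Id4 are the members outside the dashed lines.

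Usp21 itself stood at 26.2 FPKM in control cells and 3.49 after knockdown, so the targeted transcript was lower in the library labelled as its knockdown. The summed FPKM was 613617 in the control library and 543206 in the other, and setting both to the same sum adds 0.18 to the median log2 ratio of all genes. With equal sums, 78.1% of the genes past 1.5-fold were higher, in place of 54.6%. The low values move in steps of single fragments, and among 1439 genes under an FPKM of 0.1 these steps put the control library at 1.22 times the depth of the other. The lowest member value, 2.81, lies far above the range of these steps. Log2 ratios also followed transcript length, from a median of -0.16 in the shortest of 5 equal groups of genes to 0.17 in the longest. Defining mESC markers were abundant, with Pou5f1 at 868 and 752 FPKM. Nanog (467 and 258 FPKM) and Tfcp2l1 (59.0 and 30.2 FPKM), both pluripotency factors, were at least 1.5-fold lower, also with equal sums and with length corrected. All 8 mESC markers listed were lower with the USP21 shRNA at FPKM as deposited (median log2 ratio -0.28), beside 49.6% of all genes. With equal sums 6 of 8 were lower. The highest, Dppa5a, had 1849 and 1285 FPKM. Abundant genes were also lower as a whole, with a median log2 ratio of -0.19 over the 973 genes whose higher FPKM was at least 100. Most of these markers reached that level, and its part in their values was not tested. The 7 primitive endoderm markers summed to 50.2 and 43.99 FPKM, with 3 higher and 4 lower after knockdown. Dab2, the highest, had 23.1 and 16.4 FPKM and Sox7 was 2.37-fold lower (4.68 and 1.97), while Pdgfra was higher (2.48 and 4.22). The 6 early mesoderm markers summed to 2.91 and 3.03. Of the 2 that reached FPKM 1, Eomes was higher and Mixl1 (1.06 and 0.613) lower. Mixl1 reached it only in control cells. The 6 trophectoderm markers summed to 32.7 and 28.3, a difference set by Krt8 (21.97 and 13.9). Eomes (1.20 and 1.40) and Tfap2c (8.83 and 11.4) were higher after knockdown. Gata3 (0.547 and 1.36) reached FPKM 1 only in the library where it was higher, so its direction was fixed by that filter. Cdx2 and Elf5 stayed under FPKM 1 in both libraries. The 5 neural markers summed to 46.3 and 31.2, a difference set by Tubb3 (38.5 and 20.4), while Nes and Sox1, the others of the 3 that reached FPKM 1, were higher. Of the 8 fibroblast markers, Lum was at 0 in both libraries and the list summed to 20.7 and 10.3, most of it Thy1 (17.3 and 5.29). The part of these markers in the results below was not tested. In RNA of a whole culture, fewer cells with a transcript and less transcript per cell cannot be told apart.

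Among the genes at the head of the pathway, Bmp4 encodes the secreted ligand. Its FPKM was 17.7 in control cells and 12.2 after knockdown, a log2 ratio of -0.53. This is 1.45-fold lower, just inside the 1.5-fold line, and 7.54% of all genes had a lower log2 ratio. With equal sums the log2 ratio was -0.36, so the direction was kept with a smaller size. Bmp4 lies on the minus strand of chromosome 14 (46383520 to 46390669 in GRCm38) and overlaps 2 genes annotated on the opposite strand. One of these, Gm15217, was at 0.231 and 0 FPKM. Whether the sequencing kept strand is not given in the sources used here, and its part in the Bmp4 values was not tested.

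Bmpr1a encodes the type I receptor through which BMP4 signals in mESCs. It had 19.7 FPKM in control cells and 18.8 after knockdown. The log2 ratio was -0.071, and it turned to 0.10 with equal sums, so no direction can be read for the receptor. Bmpr1a lies on the minus strand of chromosome 14 (34410734 to 34503341 in GRCm38), where 1 antisense gene overlaps it. The level of Bmpr1a was 1.11 times that of Bmp4 in the control library and 1.54 times in the other. This comparison inside each library does not depend on how the libraries are scaled to each other. It is not free of the length trend, as the transcripts have 5956 and 2064 bases. With length corrected the log2 ratio was -0.22 for Bmpr1a and -0.49 for Bmp4, a smaller gap than at FPKM as deposited.

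The effectors Smad1 and Smad5 carry the BMP signal to the nucleus. Smad1 had 7.64 and 8.15 FPKM, a log2 ratio of 0.093. Smad5 had 10.4 and 15.2 FPKM, a log2 ratio of 0.54, and 8.82% of all genes had a higher one. Smad5 was therefore 1.46-fold higher and Smad1 nearly level. In GRCm38, Smad1 lies on the minus strand of chromosome 8 (79338395 to 79399518) and Smad5 on the plus strand of chromosome 13 (56703010 to 56742377). The long Smad5 transcript (6584 bases) puts it among genes that were generally higher. The 1249 genes within 20% of its length had a median log2 ratio of 0.16, and with transcript length corrected the value for Smad5 was 0.36. With equal sums it was 0.72, which is past 1.5-fold. The third BMP effector, Smad9, was hardly present at 0.144 and 0.0814 FPKM. Smad5 thus made up 57.2% of the summed FPKM of these 3 Smads in control cells and 64.8% after knockdown, while Smad1 made up 42.0% and 34.8%.

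Smad4, the partner that all receptor-activated Smads share, had 20.8 and 25.2 FPKM. Smad2 and Smad3, the effectors of the Nodal and activin branch that use the same partner, had 11.1 and 15.7 FPKM and 4.39 and 5.01 FPKM. The summed FPKM of Smad2 and Smad3 was 1.34-fold higher with the USP21 shRNA, and that of Smad1, Smad5 and Smad9 was 1.29-fold higher. The difference in Smad5 thus had a neighbour of like size in Smad2 (log2 ratio 0.50). With length corrected the log2 ratio of Smad2 was 0.27, and with equal sums it was 0.67, past 1.5-fold.

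Smad6 encodes an inhibitory Smad that acts mainly on the BMP branch and is itself a BMP target. It had 2.95 FPKM with the control shRNA, the lowest level of the 10 members, and 6.84 with the USP21 shRNA. The log2 ratio was 1.19, and 1.35% of all genes had a higher one. As a background for this value, the 2838 genes within 20% of its length (2971 bases) had a median log2 ratio of -0.00089. None of the 31-base words of the Smad6 transcript occurred in another annotated gene, and no annotated gene overlaps it. Smad6 lies on the minus strand of chromosome 9 (63953076 to 64022059 in GRCm38).

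Its sister Smad7, which blocks both the BMP and the Nodal branch, was the more abundant inhibitory Smad and lay the other way. It had 42.4 FPKM in control cells and 33.1 after knockdown, a log2 ratio of -0.36. Smad7 was 14.4 times as abundant as Smad6 in the control library and 4.84 times in the other. Smad6 accordingly made up 6.50% and 17.1% of the summed inhibitory Smad FPKM, while that sum itself was 45.4 and 39.95. The larger relative difference in Smad6 thus came with a slightly lower total of inhibitory Smad RNA at FPKM as deposited, whereas as a share of all FPKM the inhibitory Smads took 0.00740% and 0.00735%.

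Bambi encodes a pseudoreceptor, which resembles a type I receptor but lacks its kinase domain and so dampens the signal. It had 3.57 and 2.81 FPKM, a log2 ratio of -0.33. Both inhibitors among the members were low, and they lay on opposite sides of 0. The ratio of Smad6 to Bambi was 0.826 in the control library and 2.43 in the other. A processed pseudogene, Bambi-ps1, was at 0.237 and 0.398 FPKM, and summing it with Bambi gave a log2 ratio of -0.24.

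**Figure D3:**
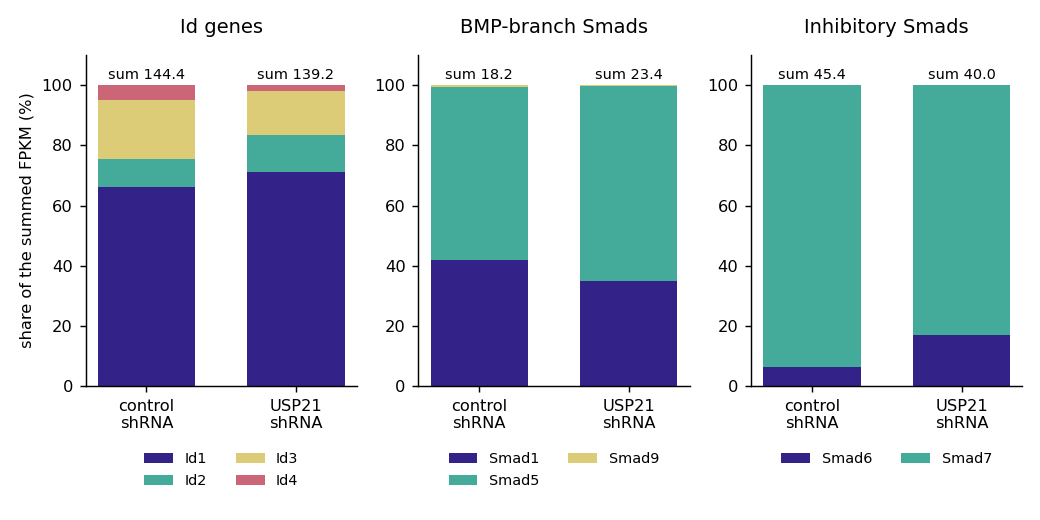
Share of the summed FPKM (%) that each gene held within the control shRNA and the USP21 shRNA library, for the Id genes (left), Smad1, Smad5 and Smad9 (middle) and the inhibitory Smads (right), with the summed FPKM above each bar. Id4 held 5.06% and 2.04% of the Id sum, and Smad6 held 6.50% and 17.1% of the inhibitory Smads.

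Id1 was by far the most abundant of the Id genes, with 95.3 FPKM in control cells and 98.9 after knockdown. Its log2 ratio of 0.053 lay close to 0, and 87.0% of all genes were further from 0. Id1 alone made up 66.0% of the summed Id FPKM in control cells and 71.0% after knockdown. Id1 lies on chromosome 2 (152736251 to 152737410 in GRCm38), and no 31-base word of the Id1 transcript used here occurs in another annotated gene. That transcript has 1 exon and 1160 bases and is 1 of 2 annotated.

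Id3, which mESCs express together with Id1, had 28.2 FPKM in control cells and 20.1 after knockdown. The log2 ratio was -0.48, or 1.40-fold lower, and 9.26% of all genes had a lower one. Genes of its length were slightly lower as a whole. The 1176 genes within 20% of its 1278 bases had a median log2 ratio of -0.12, and the corrected value for Id3 was -0.36. Id2 had 13.6 and 17.4 FPKM, a log2 ratio of 0.35, and lay on the higher side. Its correction for length went the other way, to 0.53, for a transcript of 1 exon and 958 bases. That transcript is 1 of 3 annotated for Id2, and which of them the cells express was not tested. In GRCm38, Id3 lies on chromosome 4 (136143497 to 136145755) and Id2 on chromosome 12 (25093799 to 25097140), and 4.203% of the 31-base words of Id2 occur in 1 other gene, Gm6175. Id3 was 2.07 times as abundant as Id2 in the control library and 1.16 times in the other.

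Id4, the Id gene best known from the nervous system, had 7.31 FPKM in control cells and 2.83 after knockdown. The log2 ratio was -1.34, and 0.788% of all genes had a lower one. This was the largest difference among the members, and it came from the least abundant of the 4 Id genes. The 2724 genes within 20% of its transcript length (3849 bases) had a median log2 ratio of 0.041, and the corrected value for Id4 was -1.39. Id4 lies on chromosome 13 (48261228 to 48266026 in GRCm38), and 2 noncoding genes are annotated on the opposite strand within it. One of these, A330033J07Rik, had 0.145 and 0.0543 FPKM, and 3.12% of the 31-base words of Id4 occur in other genes. A330033J07Rik lay far under FPKM 1 in both libraries, near the range of single-fragment steps, so no direction can be read from it. Its part in the Id4 values was not tested.

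The Id genes therefore had nearly the same sum in both libraries and different proportions. The sum of 144 and 139 FPKM gave a log2 ratio of -0.053, or 0.12 with equal sums. Without Id1 the remaining 3 summed to 49.1 and 40.3 FPKM. The ratio of Id1 to Id4 was 13.05 in the control library and 34.9 in the other, that of Id2 to Id4 was 1.86 and 6.13, and that of Id3 to Id4 was 3.86 and 7.11. Id4 was thus lower relative to each of the other Id genes within the same library, whatever the scaling. Ordered by level in the control library, the members ran Id1, Id3, Bmpr1a, Bmp4, Id2, Smad5, Smad1, Id4, Bambi and Smad6. In the USP21 shRNA library Id1, Id3 and Bmpr1a stayed in front, Bmp4 stood behind Id2 and Smad5, Smad6 passed Id4 and Bambi, and Id4 (2.83) and Bambi (2.81) lay side by side at the end. With 1 library per group it cannot be said which neighbours in these orders differ.

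The rest of the pathway was read from lists of 64 further BMP genes, of which 33 reached FPKM 1 in either library. Of these 33, 2 were at least 1.5-fold higher (Smurf1 and Gata3), 2 were at least 1.5-fold lower (Hes1 and Acvrl1) and 29 lay within 1.5-fold. These 4 genes are named because of their values. Gata3 and Acvrl1 reached FPKM 1 only in the library where they were higher, so they could enter the list only by differing. The median log2 ratio was 0.11, beside 0.0031 over all genes, and the shares past 1.5-fold were near those of all genes given above. The counts of ligands, receptors, antagonists, inhibitors and targets below are parts of these 33, to be read beside the same shares. With equal sums 4 were higher and 0 lower by 1.5-fold, beside 13.9% and 3.90% of all genes, so the split of this list depends on the scaling as that of all genes does.

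Of 14 other ligand genes, 5 passed FPKM 1 and all 5 lay within 1.5-fold, while 4 were at 0 in both libraries. The highest was Gdf3, a ligand of the family that mESCs express strongly, with 44.1 and 51.1 FPKM. Bmp4 was the highest of the ligand genes with a Bmp symbol, followed by Bmp7 with 2.76 and 2.38 FPKM. Of 10 other receptor and co-receptor genes, 7 passed, and 6 of these lay within 1.5-fold. Bmpr2, the type II receptor that pairs with Bmpr1a, had 6.23 and 6.75 FPKM, and Acvr1, another type I receptor, had 4.50 and 4.87. Eng, a co-receptor best known from endothelium, was the highest in control cells with 10.01 FPKM and had 7.13 after knockdown, when Acvr2b, a type II receptor, was higher at 8.77. Acvrl1, with which Eng works in endothelium, had 1.31 and 0.772 FPKM.

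Of 15 extracellular antagonist genes, which bind the ligand outside the cell, 4 passed FPKM 1 and none of these was past 1.5-fold. Twsg1, a modulator of BMP and chordin binding, was the highest with 15.5 and 11.3 FPKM. Nog stood at 0.641 and 0.558 FPKM, and Cer1 was at 0 in both. All 8 intracellular inhibitor genes passed, led by Fkbp1a, which binds type I receptors and keeps them inactive without ligand, with 200.9 and 188 FPKM. Smurf1, a ubiquitin ligase that marks Smad1 and Smad5 for degradation, had 6.97 FPKM in control cells and 13.3 after knockdown, a log2 ratio of 0.92. Its relative Smurf2 had 10.01 and 11.8 FPKM. Smurf1 and Smad6 were both higher in the USP21 shRNA library, whereas the inhibitor genes Smad7 and Bambi were lower. Of the 8 intracellular inhibitor genes, 4 were higher and 4 lower at FPKM as deposited. Their median log2 ratio was 0.035, and 7 of the 8 lay within 1.5-fold.

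**Figure D4:**
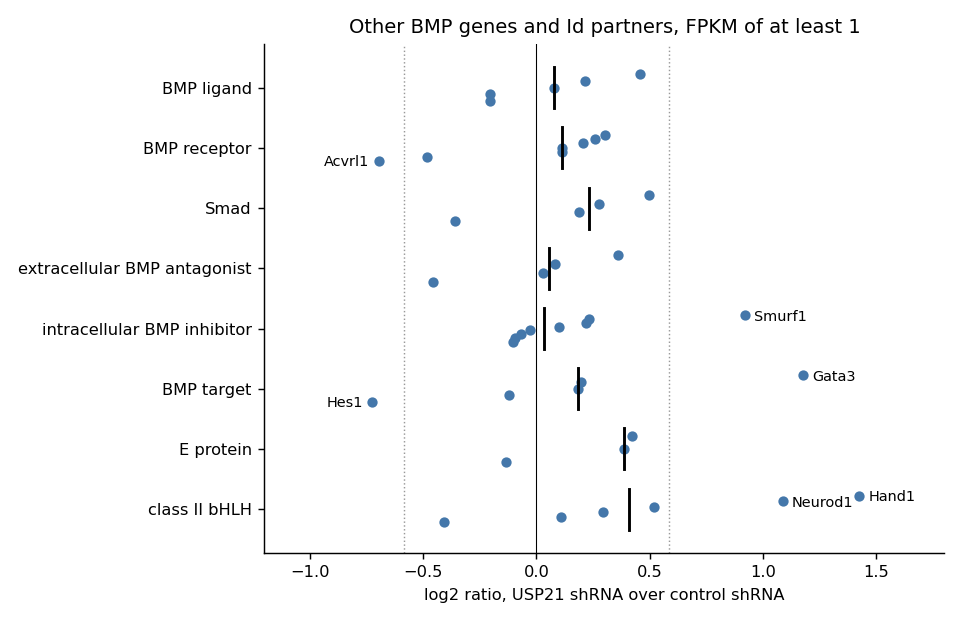
Log2 ratio (USP21 shRNA over control shRNA, horizontal) of the genes that reached FPKM 1 in either library from 8 lists of other BMP pathway genes and Id partners, 1 point per gene, with the median of each list as a black bar and dotted lines at 1.5-fold. Genes past 1.5-fold are named, with Smurf1, Gata3, Neurod1 and Hand1 to the right and Hes1 and Acvrl1 to the left.

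Of 12 other BMP target genes, 5 passed FPKM 1. Dusp9, a phosphatase through which BMP restrains ERK in mESCs, had 87.1 and 100.0 FPKM, a log2 ratio of 0.20. At FPKM as deposited it thus stayed near its control level, as Id1 did. With equal sums the log2 ratio was 0.37 for Dusp9 and 0.23 for Id1, beside a median of 0.18 over all genes. Hes1, a repressor of the bHLH family that also answers Notch, had 39.2 and 23.7 FPKM, a log2 ratio of -0.72. Gata3 had 0.547 and 1.36 FPKM, a low level in both libraries. Msx1 and Msx2, classic BMP targets in embryonic tissue, stayed under 1 at 0.0786 and 0.0301 and at 0.827 and 0.824 FPKM.

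Id proteins work by binding E proteins. The 3 E protein genes, Tcf3, Tcf4 and Tcf12, all lay within 1.5-fold at FPKM as deposited and summed to 66.1 and 68.1 FPKM. With equal sums Tcf12 had a log2 ratio of 0.60, just past 1.5-fold, and that of Tcf3 turned from -0.13 to 0.041. Tcf3, which encodes E12 and E47, was the highest with 47.4 and 43.2 FPKM, while Tcf12 had 12.8 and 17.2. Of 20 lineage bHLH genes, the partners that E proteins use in differentiated cells, 6 passed FPKM 1. Tcf15, which is expressed in mESCs, was the highest with 108 and 133 FPKM. Neurod1, a neuronal factor, had 1.46 and 3.21 FPKM and Hand1, a factor of heart and trophoblast, had 0.403 and 1.25, and both were more than 2-fold higher at low levels. Hand1 reached FPKM 1 only in the library where it was higher, and 4.998% of the 3101 genes whose higher FPKM lay between 1 and 5 were at least 2-fold higher. The other 14 lineage bHLH genes, including the muscle factor Myod1, stayed under an FPKM of 1 in both libraries.

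**Figure D5:**
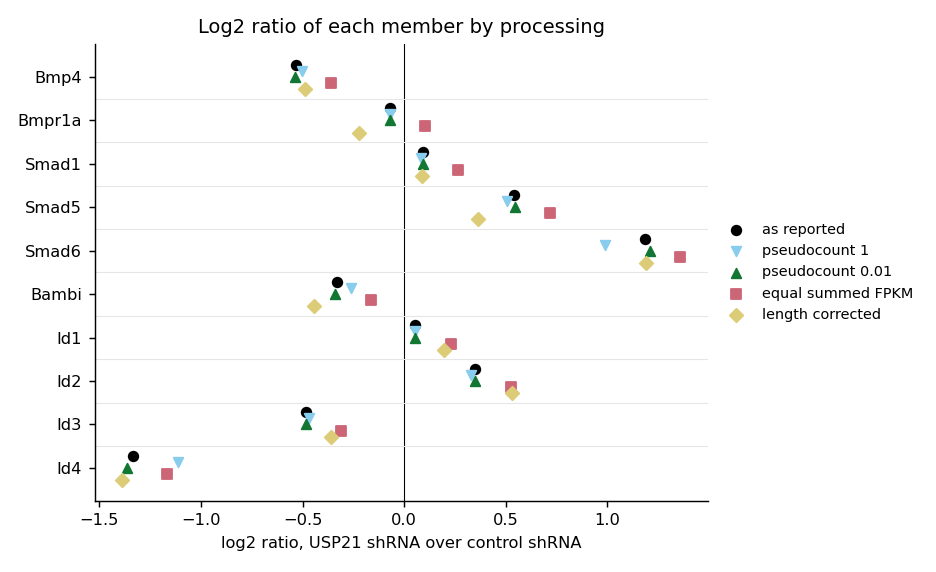
Log2 ratio of each member (USP21 shRNA over control shRNA, horizontal) as reported, with a pseudocount of 1 or 0.01, with both libraries set to the same summed FPKM, and with transcript length corrected. All markers of Smad6 and Smad5 lie above 0 and all markers of Id4, Id3, Bmp4 and Bambi below it, while those of Bmpr1a lie on both sides.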

How the data were processed

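RNA sequencing of E14 mESCs was analysed from 1 library with a control shRNA and 1 library with an USP21 shRNA. For each library, the authors deposited a table of FPKM by gene symbol. The submitters' processing notes name CASAVA 1.8.2, TopHat2 2.0.14, Cufflinks 2.2.1 and the build mm9. Their settings and the gene annotation are not given in the sources used here. The files hold no counts, so no interval, detection limit or count model was computed.

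Log2 ratios were computed with a pseudocount of 0.1 over the whole table, and genes reaching FPKM 1 in either library formed the background. With 1 library per group, past 1.5-fold or 2-fold describes a value and is not a test. Alternatives were pseudocounts of 1 and 0.01, floors of 0.1 and 5, both libraries rescaled to the same summed FPKM, subtraction of the median, and a lowess of the log2 ratio on log2 transcript length (span 0.3). A sum of Bambi with its pseudogene was added after the data had been seen. Transcript lengths, positions, overlapping genes and shared 31-base words were taken from the GENCODE M21 transcripts (GRCm38), choosing for each gene that of longest coding sequence, and 95.4% of the background genes had a length. GRCm38 is not the build of the files. Upstream sequences came from RefSeq.

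The members and lists were chosen with earlier results of these data known. Named were all members, Usp21, the highest gene of each list and list genes past 2-fold. Further relatives of the members, cell markers and the 1.5-fold genes of the wider lists were named afterwards. The log2 ratio and length correction were checked on simulated data. Python 3.11.15, numpy 2.4.6, pandas 2.3.3, statsmodels 0.14.6 and matplotlib 3.10.9 were used.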

Additional observations from a re-analysis of the deposited data

How the results depend on the processing

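For the members, 9 of 10 kept their direction under the 5 other pseudocounts, scalings and corrections. Bmpr1a did not and ran from -0.22 to 0.10 on the log2 scale. A pseudocount cannot change a direction. Subtracting the median moved each value by 0.0031, less than the member value closest to 0 (Id1, 0.053). Only equal sums and the length correction could therefore have changed a direction. Smad6 ran from 0.99 to 1.36 and Id4 from -1.39 to -1.12. With a pseudocount of 1 the number of members at least 2-fold higher went from 1 to 0, since Smad6 reached 0.99. With equal summed FPKM the members at least 1.5-fold higher were 2, Smad6 and Smad5, beside 13.9% of all genes in place of 7.77%. The medians of some wider lists depended on the FPKM floor. At a floor of 0.1 they were -0.20 for ligands, 0.36 for extracellular antagonists and -0.11 for lineage bHLH genes, in place of 0.077, 0.057 and 0.41. At a floor of 5 the median of the extracellular antagonists was -0.46, from Twsg1 alone. These floors changed the number of genes in each list. No paired analysis was possible because each group has 1 library, and for the same reason no library could be left out. Differences between cultures or library preparations cannot be told apart from the effect of the shRNA, and the counting error of low members such as Bambi is unknown.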
